A study of Homo sapiens with 6 samples.

Results

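The APOBEC3 genes encode cytidine deaminases, and all 7 of them (APOBEC3A, APOBEC3B, APOBEC3C, APOBEC3D, APOBEC3F, APOBEC3G and APOBEC3H) were found by symbol among 57773 genes of the count table. They lie side by side on chromosome 22, in a stretch of 151 kb from the start of APOBEC3A to the end of APOBEC3H. Polyadenylated RNA came from HAP1, an established human cell line of chronic myeloid leukaemia origin with a near-haploid genome. There were 3 wild-type libraries and 3 from cells whose CTCF carries Y226A together with F228A, called the mutant below. CTCF is a zinc-finger protein of insulators and chromatin loop anchors, and the study concerns loops anchored by cohesin and CTCF. The edit was made with Cas9, a guide against CTCF and a repair oligonucleotide, in cells under puromycin selection. The labels give this protocol for every library and do not say whether the wild-type cells were also transfected or selected. All mutant libraries carry the same number in their descriptions and separate clones or cultures are not stated, so p-values measure the spread between libraries. What belongs to the substitutions and what to the edited clone cannot be told apart.

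APOBEC3 enzymes remove the amino group of cytosine in single-stranded DNA, which leaves uracil. They are known as restriction factors: APOBEC3G and APOBEC3F mutate the DNA copies of retroviruses such as HIV that lack the Vif protein, and several members also limit endogenous retroelements. APOBEC3A and APOBEC3B are known as sources of cytosine mutations in tumours. Each active domain holds zinc through a histidine and a pair of cysteines, with a glutamate that takes part in catalysis. Some members have a single such domain and others have a pair, the C-terminal domain of APOBEC3G being its catalytic one.

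The stretches of coding sequence around the zinc site show how alike the members are, which bears on how their reads can be told apart. They were read from the GENCODE principal transcripts (release 29, GRCh38, plus strand), and capitals mark the codons of the histidine, the glutamate and both cysteines. APOBEC3A, APOBEC3C and APOBEC3H held 1 such site each and APOBEC3B, APOBEC3D, APOBEC3F and APOBEC3G held 2. The site of APOBEC3C lies at chr22:39017787-39017891 in exon 3 of 4. Those of APOBEC3F lie at chr22:39044962-39045066 in exon 3 and chr22:39052095-39052199 in exon 6 of 7. Those of APOBEC3G lie at chr22:39080954-39081061 in exon 3 and chr22:39086312-39086416 in exon 6 of 8. The C-terminal site of APOBEC3B lies at chr22:38991365-38991475 in exon 6 of 8.
APOBEC3C, single site: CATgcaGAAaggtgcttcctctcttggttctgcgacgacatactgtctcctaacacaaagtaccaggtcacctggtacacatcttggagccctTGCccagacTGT
APOBEC3F, N-terminal site: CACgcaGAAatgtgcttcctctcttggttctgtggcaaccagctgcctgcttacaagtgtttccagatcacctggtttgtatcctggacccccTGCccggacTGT
APOBEC3F, C-terminal site: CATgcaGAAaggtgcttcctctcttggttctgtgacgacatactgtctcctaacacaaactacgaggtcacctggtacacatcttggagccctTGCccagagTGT
APOBEC3G, N-terminal site: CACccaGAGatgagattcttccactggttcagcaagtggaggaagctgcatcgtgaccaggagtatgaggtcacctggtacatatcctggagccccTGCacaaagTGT
APOBEC3G, C-terminal site: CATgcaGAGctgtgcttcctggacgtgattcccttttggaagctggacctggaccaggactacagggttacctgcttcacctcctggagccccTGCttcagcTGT
APOBEC3B, C-terminal site: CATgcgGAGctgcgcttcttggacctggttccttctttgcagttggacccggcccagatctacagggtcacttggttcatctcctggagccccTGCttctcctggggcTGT
The C-terminal sites of APOBEC3D and APOBEC3F were identical over 105 bases, and so were the N-terminal sites of APOBEC3B and APOBEC3F. The site of APOBEC3A matched the C-terminal site of APOBEC3B over all 111 bases. APOBEC3C differed from the C-terminal site of APOBEC3F at 4 of 105 bases (96.2% identity), whereas the C-terminal sites of APOBEC3G and APOBEC3F differed at 46 (56.2% identity).

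How far reads can be assigned differs between members. Among windows of 50 bases along annotated transcripts, 1.39% of those of APOBEC3C and 7.80% of those of APOBEC3G were also found at another place in the annotated transcripts. The shares were 19.2% for APOBEC3D, 21.1% for APOBEC3F, 27.0% for APOBEC3B and 18.8% for APOBEC3A, against 0.298% for APOBEC3H. The annotated span of APOBEC3A reaches over APOBEC3B in this release, and 299 windows of APOBEC3B belonged to both genes at the same place. For APOBEC3D, 2055 of 2554 windows (80.5%) lay at the same place in AL022318.4, an overlapping gene of this release that has no row in the count table. Reads of several places, or of several genes that have rows in the count table, stand in closing rows outside the gene counts. This can lower members with such reads. The sources used here do not give the read length, gene annotation or strand option. Reads aligned to more than 1 place were 12.1% to 12.6% of everything the table counts, closing rows included, in wild-type libraries and 11.5% in each mutant library. The part of this in the results was not tested.

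Depth was alike in both genotypes, with 7854317 to 9610028 gene counts in the wild-type libraries and 7764009 to 9536554 in the mutant libraries. A single count corresponded to 0.104 to 0.130 CPM, the count relative to the TMM-scaled library total. The edited gene, CTCF, had 1016, 871 and 882 counts in the wild-type libraries and 1150, 1077 and 1275 in the mutant libraries, a rise of 0.31 on the log2 scale (SE 0.058, edgeR adjusted p = 4.20e-04). In the mutant 1768 genes rose and 1374 fell among 14835 tested (edgeR quasi-likelihood test, Benjamini-Hochberg adjusted p under 0.05). Of the blood-cell markers, PTPRC, SPI1, GATA1, CD3E, MS4A1, LYZ and HBG1 had 0 counts in all 6 libraries. The summed level of 15 blood markers was 54.3 to 57.2 CPM in wild-type and 90.6 to 96.0 CPM in mutant libraries, nearly all of it KIT and TAL1, and TAL1 rose by 1.08. The 5 fibroblast markers summed to 24.2 to 29.4 and 30.7 to 40.5 CPM, with COL1A2, DCN and LUM at 0 counts, and COL1A1 rose by 0.40 (edgeR adjusted p = 0.00962, lost without wild-type replicate 2 at 0.0552). The 5 epithelial markers summed to 52.6 to 58.4 and 49.8 to 55.0 CPM, with KRT5 at 0 counts. Within them EPCAM rose by 1.05 (SE 0.25, edgeR adjusted p = 0.00414, lost with DESeq2 at 0.0518) and KRT8 fell by 0.80 (SE 0.12, adjusted p = 4.78e-05). The part of these markers in the results was not tested.

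The family was expressed at a low level in both genotypes, and its members changed unequally. APOBEC3C was lower in the mutant and APOBEC3G was not detected there, while APOBEC3F and APOBEC3B had higher means in the mutant with overlapping groups. The 7 genes were chosen by family, with the measured counts of this same contrast already in view, so their differences between genotypes are given as a description without a test of their own. Of the 7, 4 passed the filter on low counts. Of those 4, edgeR called 2 lower and 0 higher, beside 21.2% of all tested genes called, 9.26% lower and 11.9% higher. At an unadjusted p under 0.05 the counts were 2 lower and 1 higher, beside 2255 lower and 2583 higher among all 14835 tested genes. DESeq2 called 2 members lower and 0 higher, beside 2189 genes called in either direction. Groups did not overlap for 2 of the 4, both lower, beside 35.5% of all tested genes, 16.5% lower and 19.0% higher. No reading is drawn from these counts, since the choice of members used them.

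APOBEC3G, the best-known HIV restriction factor of the family, had 21, 14 and 18 counts in the wild-type libraries and 0, 0 and 0 in the mutant libraries. Reads were found in every wild-type library and in no mutant library. In RNA from whole cultures, fewer cells with a transcript and less of it per cell cannot be told apart. Its wild-type level was 2.08 ± 0.260 CPM (mean ± SD, n = 3). At that level the mutant libraries would have held 18.2, 16.0 and 19.7 counts. Set against a floor of 3 counts over the mutant libraries, the 53 wild-type counts give a floor-based value of 18.02-fold lower in the mutant. This value is not an estimate of the fold itself. The floor covers counting error on the mutant side only, and the 53 counts are taken as exact. A count of 0 allows up to 0.317 to 0.389 CPM in a single mutant library, for counting error only. For context, 15 of 1094 genes with 40 to 70 wild-type counts (1.37%) had 0 counts in every mutant library. APOBEC3G was among them, as the only one on chromosome 22. The band was chosen after the values were seen, around the count of APOBEC3G, so nothing is read from this share or place. In the authors' deposited table, APOBEC3G is among 40 marked genes and has a log2 fold change of -6.61 (SE 1.29), a fitted value that is no bound.

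APOBEC3C, a single-domain member that is widely expressed in human tissues, was the most abundant of the family in wild-type cells. It had 75, 60 and 52 counts in the wild-type libraries and 14, 9 and 14 in the mutant libraries. Every mutant library lay below every wild-type library. Levels were 7.32 ± 0.674 CPM in wild-type and 1.42 ± 0.224 CPM in mutant libraries (mean ± SD, n = 3 each), a fitted log2 fold change of -2.35 (SE 0.23) or 5.11-fold lower. Unlike APOBEC3G, it remained detectable in each mutant library. The estimate stayed between -2.45 and -2.19 under all alternatives run.

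APOBEC3D, a double-domain member next to APOBEC3C, was close to the limit of detection. Its counts were 8, 10 and 3 in the wild-type libraries and 1, 2 and 0 in the mutant libraries. The groups did not overlap, but the lowest wild-type and highest mutant libraries lay 1 count apart. Over the libraries of each genotype, 21 and 3 counts give a ratio of 7.14 (95% Clopper-Pearson interval 2.13 to 37.4, for counting error only), with the wild type higher. The gene did not pass the filter on low counts. Without that filter its fitted log2 fold change was -2.69 (SE 0.76), and the authors' deposited table gives -2.82 (SE 1.14). DESeq2, also with this gene kept, gave -2.81 (SE 1.16) and did not call it, whereas edgeR without the filter did. Its C-terminal zinc site is that of APOBEC3F letter for letter, so reads wholly within it could come from either gene. Reads aligned to more than 1 place are kept outside the gene counts.

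APOBEC3F, a double-domain enzyme with anti-retroviral activity, was the most abundant member in the mutant. It had 39, 32 and 33 counts in the wild-type libraries and 50, 49 and 33 in the mutant libraries. Mutant replicates 1 and 2 lay above the wild type and mutant replicate 3 lay below it, so the groups overlapped. Levels were 4.09 ± 0.0571 and 5.18 ± 1.505 CPM, with a fitted log2 fold change of 0.32 (SE 0.22) that was not called. Without mutant replicate 3 the estimate was 0.55, and without mutant replicate 2 it was 0.15.

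APOBEC3B, a nuclear member with a pair of domains, had 13, 9 and 7 counts in the wild-type libraries and 20, 20 and 12 in the mutant libraries. In CPM, mutant replicate 3 (1.27) lay below wild-type replicate 1 (1.35), so the groups overlapped here too. Levels were 1.13 ± 0.235 and 2.05 ± 0.694 CPM, with a fitted log2 fold change of 0.81 (SE 0.35) that was not called. Without mutant replicate 3 the estimate was 1.08 and the gene was called. Over both genotypes, 29 and 52 counts give a ratio of 1.76 with the mutant higher (95% Clopper-Pearson interval 1.10 to 2.87, for counting error only). The antisense gene APOBEC3B-AS1, which shares sequence at the same place with APOBEC3B, had 0 counts in all libraries.

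The members at both ends of the cluster were barely seen. APOBEC3A, a single-domain enzyme known from monocytes, had 1 count in mutant replicate 1 and 0 counts in the other libraries. APOBEC3H, also a single-domain member, had 1 count in wild-type replicate 3 and 0 counts elsewhere. Both genotypes are at or under the floor of 3 counts for these genes, and no fold is given.

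**Figure D1:**
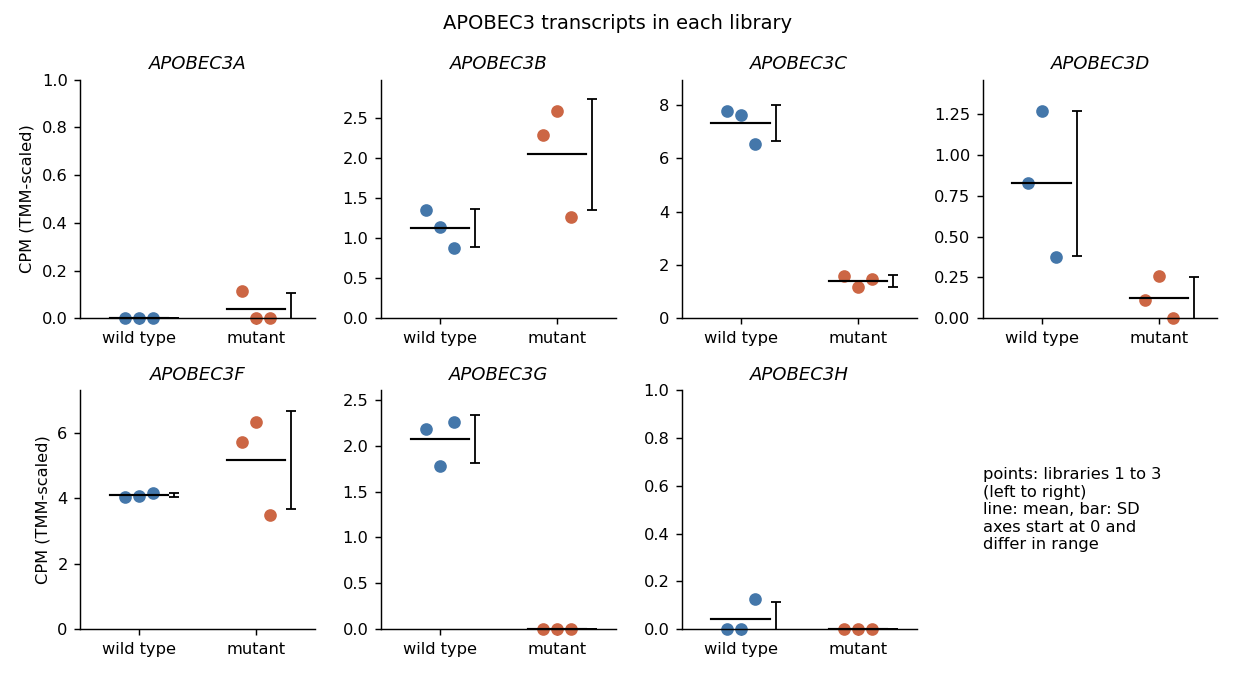
TMM-scaled CPM of each APOBEC3 gene in the 3 wild-type and 3 mutant libraries, with points for libraries, horizontal lines for means and bars for the SD. APOBEC3C and APOBEC3G are lower in each mutant library, with APOBEC3G at 0, while APOBEC3B and APOBEC3F overlap between genotypes; each axis starts at 0 and has its own range.

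The order of the members differed between genotypes. Per kilobase of exon, wild-type APOBEC3C stood at 2.60 ± 0.239 CPM per kilobase, above APOBEC3F at 1.26 ± 0.0176 (mean ± SD, n = 3), with no overlap of libraries. APOBEC3B followed at 0.594 ± 0.124, also apart from APOBEC3F. APOBEC3G (0.382 ± 0.0478) and APOBEC3D (0.327 ± 0.177) did not differ beyond their spread. In the mutant, APOBEC3F at 1.60 ± 0.464 CPM per kilobase and APOBEC3B at 1.08 ± 0.366 overlapped, APOBEC3C at 0.502 ± 0.0793 lay below both, and APOBEC3D was at 0.0492 ± 0.0514. The place of APOBEC3G depends on the length used. Its annotated exons cover 5437 bases but its principal transcript has 1834, and with the latter, chosen after the data were seen, wild-type APOBEC3G stood at 1.13 ± 0.142 CPM per kilobase, above APOBEC3B at 0.734 ± 0.153.

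Together the 7 genes had 156, 125 and 114 counts in the wild-type libraries and 86, 80 and 59 in the mutant libraries. Their summed level was 15.5 ± 0.987 CPM in wild-type and 8.81 ± 2.25 CPM in mutant libraries, without overlap. The make-up shifted as well. APOBEC3C supplied 47.2 ± 1.40% of the family's counts in wild-type libraries and 17.1 ± 6.28% in mutant libraries. APOBEC3F supplied 26.5 ± 2.13% and 58.4 ± 2.67%, and APOBEC3B 7.22 ± 1.10% and 22.9 ± 2.35%. APOBEC3G went from 13.5 ± 2.29% to 0%, where 0 of 225 counts allows a share of up to 1.33% for counting error only. Such shares depend on one another, since a loss of APOBEC3C and APOBEC3G raises the shares of the rest. Mutant replicate 3 had the lowest family sum at 6.23 CPM. There APOBEC3C had 14 counts and APOBEC3B 12, but per kilobase of exon the order was APOBEC3F, APOBEC3B and APOBEC3C in every mutant library.

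**Figure D2:**
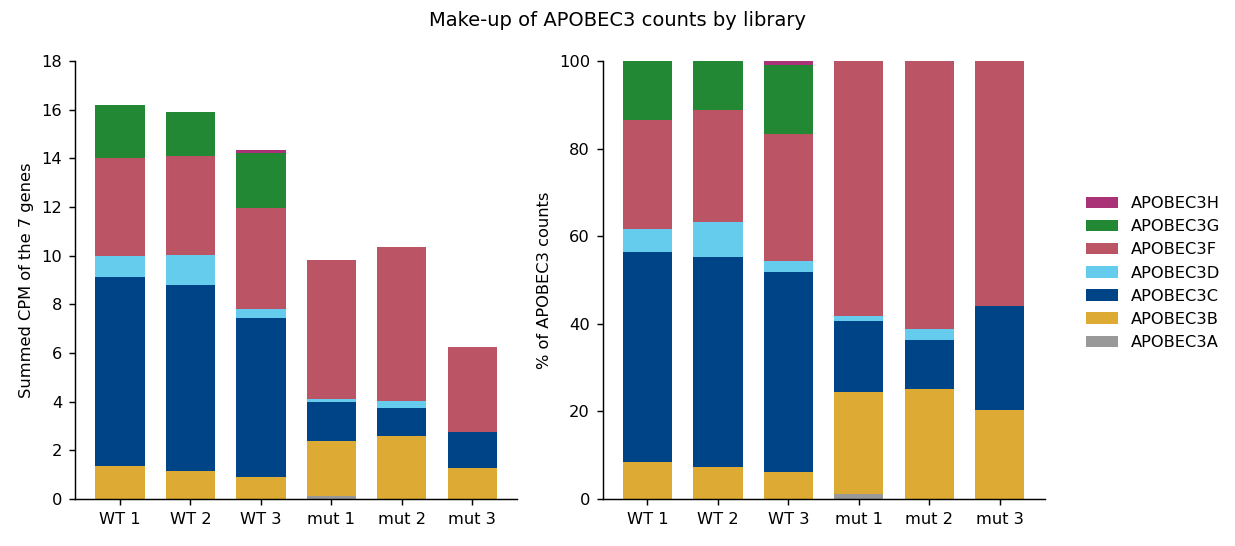
Summed TMM-scaled CPM of the APOBEC3 genes (left) and percentage of the family's counts by gene (right) in each library, wild type (WT) and mutant (mut), as stacked bars from 0. APOBEC3C is the largest part in the wild type, at 45.6% to 48.1%, and APOBEC3F in the mutant, at 55.9% to 61.3%.

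The members with fewer counts in the mutant were not next to each other without a break. APOBEC3C and APOBEC3D lie together, then APOBEC3F with overlapping groups, then APOBEC3G without a mutant count. Among 21 tested protein-coding genes within 12 places of the cluster on either side, fitted log2 fold changes ran from -0.24 to 0.92, all above that of APOBEC3C. The nearest neighbours encode the Polycomb proteins CBX6, 80.4 kb before the cluster, and CBX7, 16.1 kb after it. CBX6 rose by 0.24 (SE 0.072, edgeR adjusted p = 0.0182), a call lost with DESeq2 (0.0655) and without wild-type replicate 1 (0.0506) or 2 (0.0852). CBX7 had -0.24 (SE 0.16, adjusted p = 0.308) and was not called. Next to CBX6, the neuronal pentraxin receptor gene NPTXR had 56, 43 and 46 counts in the wild type and 97, 98 and 84 in the mutant, a rise of 0.92 (SE 0.17, adjusted p = 3.22e-04). PDGFB, after CBX7, had 28 counts in wild-type and 29 in mutant libraries. Of 27 listed neighbours 23 were tested, of which 4 rose and 2 fell (2 to 4 and 0 to 2 without single libraries), with a median of 0.05. The calls of NPTXR and TNRC6B (0.45, SE 0.073, edgeR adjusted p = 9.22e-05) held under all 12 alternatives, and 4 calls did not. Over all genes of chromosome 22, 33 rose and 34 fell of 358 tested, with a median of 0.002. Among all tested genes of the genome, 11.9% rose and 9.26% fell.

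By Euclidean distance of log2(CPM + 0.5) over the 6 libraries, the genes most like APOBEC3G were ANGPTL2 (distance 0.119), ELFN1-AS1 (0.166), CCDC144NL-AS1 (0.427) and OLFM1 (0.467). Summed over libraries, ANGPTL2, ELFN1-AS1 and OLFM1 had 52, 57 and 48 counts in wild-type and 0 in mutant libraries. CCDC144NL-AS1 had 55 and 1, and none of these genes is on chromosome 22. Nearest to APOBEC3F, the member with the highest mean CPM over all libraries, were CDHR3 (0.303), SPEF2 (0.404), C11orf35 (0.406) and MEMO1 (0.438).

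Other deaminases were mixed. APOBEC1, APOBEC2 and APOBEC4 had 0 counts in all libraries, and so did the APOBEC1 cofactor A1CF. RBM47, another such cofactor, was not called (0.20, SE 0.23). Of 16 genes for other nucleoside, nucleotide and RNA deaminases, 11 were tested, of which 1 rose and 4 fell (2 fell with DESeq2), with a median of -0.04. Among all tested genes 11.9% rose and 9.26% fell with edgeR, and DESeq2 called 2189 genes in either direction. CECR1, now ADA2, an extracellular adenosine deaminase, fell from 6.75 ± 0.700 to 0.886 ± 0.223 CPM (log2 -2.90, edgeR adjusted p = 3.04e-08). CDA, the free-cytidine deaminase of pyrimidine salvage, fell from 5.92 ± 0.543 to 2.22 ± 0.369 CPM (log2 -1.42, adjusted p = 5.39e-05). The RNA-editing adenosine deaminase gene ADAR rose by 0.20 (SE 0.046, adjusted p = 0.00251). In this and the next paragraph, called genes are named where the call held under all 12 alternatives run, which was so for 15 of the 36 calls over all lists.

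Genes of lists chosen around the APOBEC3 enzymes, other restriction factors among them, moved in both directions. Of 23 genes of uracil and base excision repair, not all of them acting on deaminated cytosine, 1 rose and 2 fell, with a median of 0.001. The uracil glycosylase gene UNG fell by 0.33 (SE 0.065, edgeR adjusted p = 6.36e-04) and NTHL1 fell by 0.43 (SE 0.095, adjusted p = 0.00214). Of 23 tested other restriction factors, 3 rose and 3 fell, with a median of -0.02. IFITM1, a membrane protein that limits viral entry, fell from 7.76 ± 0.987 to 1.81 ± 0.414 CPM (log2 -2.09, adjusted p = 3.96e-07). SLFN11 and TRIM22 rose by 0.65 (SE 0.062) and 0.46 (SE 0.075). Of 20 genes of the interferon and NF-kB pathways, which can induce APOBEC3 transcription, 4 rose and 1 fell, with a median of 0.09. That list is not limited to activators of these pathways. Its only call that held, TRAF3, rose by 0.28 (SE 0.063). Of 18 DREAM and E2F genes, not all of them repressors of APOBEC3B, 5 rose and 0 fell, with a median of 0.09. MGA rose by 0.40 (SE 0.088). In that list 2 genes rose without wild-type replicate 1 or 3, 3 without mutant replicate 2 and 1 without mutant replicate 3. Of its genes, 1 was lower at an unadjusted p under 0.05, and DESeq2 called 3 higher and 0 lower. Of 9 genes of the ubiquitin ligase that Vif recruits and of HUWE1, 2 rose and 0 fell (2 lower at an unadjusted p under 0.05, 0 lower with DESeq2), with a median of -0.04. CBFB, the cofactor of Vif, rose by 0.23 (SE 0.058). Without single libraries the higher and lower counts ran from 0 to 2 and 2 to 3 for repair, 2 to 4 and 1 to 3 for restriction factors, 2 to 4 and 0 to 1 for interferon and NF-kB genes and 1 to 2 and 0 to 1 for the ligase. Beside these lists, 11.9% of all tested genes rose and 9.26% fell with edgeR, and the median of all tested genes was -0.001. At an unadjusted p under 0.05, 2583 of all 14835 tested genes were higher and 2255 lower. DESeq2 called 2189 genes in either direction.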

How the data were processed

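PolyA RNA-seq libraries of HAP1 cells were compared, 3 wild type and 3 CTCF mutant. The authors deposited raw counts per gene without normalization. Per the submitters' processing notes, the tools were TopHat2 2.1.1, HTSeq and DESeq2 and the build was hg19. Their roles, the annotation release and the strand option are not stated in these sources. The authors also deposited a DESeq2 table with a mean signal of size-factor scaled counts, log2 fold changes with SE, the Wald score, p-values and adjusted p-values, and a mark for 40 genes. Every count column was mapped to a library, 0 being left out. The table's 5 closing rows, which name no gene, were set aside, among them not-unique alignments (11.5% to 12.6% of everything counted) and reads without a gene (9.05% to 10.5%).

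Counts were fitted with edgeR 4.0.16 in R 4.3.3 (TMM, filterByExpr, robust quasi-likelihood F test, two-sided, genotype as the only term), leaving 14835 of 25665 genes with a count. P-values were adjusted by Benjamini-Hochberg over all of them, and the fit was tested on simulated data. Each edgeR SE is the absolute log2 fold change divided by the square root of F, and not an SE given by the model. It is not directly comparable with an SE of DESeq2: for APOBEC3C the values were 0.23 and 0.351. Alternatives were DESeq2 1.42.0, RLE and upper-quartile scaling, no filter beyond 1 count, a prior count of 2, a replicate block and leaving out each library. The common biological coefficient of variation was 0.0545. At this depth 3 counts correspond to 0.312 to 0.389 CPM in a library. Intervals and floors describe counting error alone, because PCR copies could not be recognised.

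Symbols came from the authors' table or by Ensembl identifier. Positions, exon lengths and transcripts are those of GENCODE 29 on GRCh38, not the build of the counts. The members and lists were chosen with earlier results of these data known. The genes planned for naming were the members, CTCF, tested neighbours and deaminases, up to 4 called genes per direction of other lists by lowest p, and the 4 genes nearest to APOBEC3G and APOBEC3F. After the values were seen, naming in the lists was limited to calls that held, apart from neighbours close to the cluster, RBM47, genes without counts and the cell-type markers.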

Additional observations from a re-analysis of the deposited data

How the results depend on the processing

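Totals of 1768 higher and 1374 lower genes kept within 1.5 times under all alternatives (1374 to 1825 and 1042 to 1640 without single libraries). APOBEC3C and APOBEC3G were called lower under every alternative, and the number of members called lower was 2 without any single library and 3 with no filter in edgeR, where APOBEC3D was added. DESeq2 did not call APOBEC3D. Members called higher numbered 0 to 1, the 1 being APOBEC3B without mutant replicate 3. The fitted value of APOBEC3G ran from -7.28 to -3.31, the latter with a prior count of 2. Per kilobase of principal transcript, wild-type levels were 0.734 for APOBEC3B, 1.52 for APOBEC3F and 1.13 for APOBEC3G.

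Counts of called list genes are small and moved. With DESeq2, 2 neighbours rose and 1 fell, 2 other deaminases fell, 2 interferon and NF-kB genes rose and 0 fell, 3 DREAM and E2F genes rose and 0 epithelial markers rose. With no filter beyond 1 count, 2 other deaminases and 2 repair genes rose, 0 interferon and NF-kB genes fell, and 1 gene of the Vif-directed ligase and 1 fibroblast marker fell. For the Vif-directed ligase 1 gene fell with RLE scaling and 2 with upper-quartile scaling. Without single libraries, higher and lower counts were 2 to 4 and 0 to 2 for neighbours, 1 to 2 and 3 to 5 for other deaminases, 0 to 2 and 2 to 3 for repair, 2 to 4 and 1 to 3 for restriction factors, 2 to 4 and 0 to 1 for interferon and NF-kB genes, 1 to 5 and 0 for DREAM and E2F genes, 1 to 2 and 0 to 1 for the Vif-directed ligase, and 0 to 1 and 0 for fibroblast markers. The causes were not tested.

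Pairing of the libraries by replicate number was not shown. Deviations of same-numbered libraries correlated at 0.086, 0.100 and -0.124 across genes, and not every library correlated best with its own number. With 3 libraries per genotype this check cannot exclude pairing. With the replicate block 3574 genes were called in place of 3142, 2 other deaminases rose and 1 gene of the Vif-directed ligase fell, and no call of an APOBEC3 member changed. Depth limits APOBEC3A, APOBEC3D and APOBEC3H, at 1, 24 and 1 counts over all libraries.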
